A study of Mus musculus with 7 samples.

Results

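Genes of protein folding and protein destruction were compared between the epidermis of 4 mutant and 3 control mice: the proteasome, the cytosolic and mitochondrial chaperones, and the folding machinery of the endoplasmic reticulum (ER). Members were taken by symbol alone (Psma to Psmg, Hsp, Dnaj, Pdia, Cct2 to Cct8, Sec61, and the ER genes Canx, Calr, Xbp1, Ddit3, Atf4, Atf6, Ero1, Creld2, Sdf2l1 and Manf with their numbered relatives), which gave 92 of the 7091 genes in the deposited table. These 92 came as 38 proteasome genes, 34 heat shock and chaperonin genes and 20 ER genes. KA mice carried K14-CreERT together with ABCA12-cKO, so that tamoxifen deletes Abca12, a lipid transporter of keratinocytes, in cells where the keratin 14 promoter of basal keratinocytes drives the recombinase. Controls were ABCA12-c/c mice that lacked CreERT but were given tamoxifen in the same way. KA therefore differs from control both by the deletion and by the active recombinase. Both groups were injected at 8 weeks of age with 1 mg of tamoxifen per 40 g of body weight on each of 3 days, and the epidermis was separated from telogen (resting phase) skin 2 weeks later, 1 mouse per library. KA 1 and KA 2 were males, KA 3 and KA 4 females, control 2 a male, and control 1 and control 3 females.

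The proteasome is a barrel of alpha and beta rings, the 20S core, in which beta subunits cut proteins, capped by the 19S particle, whose ATPases unfold proteins tagged with ubiquitin. In cells exposed to interferon the catalytic beta subunits can be exchanged for immunoproteasome subunits, which favour peptides for antigen presentation. Heat shock proteins and the CCT ring fold proteins in the cytosol, while the ER folds and oxidises secreted and membrane proteins and answers overload through the unfolded protein response. In epidermis, keratinocytes fold large amounts of membrane and secreted protein as they differentiate, and the small heat shock protein Hspb1 is a known companion of that differentiation.

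The table lists only genes that the authors' own test called at an adjusted p under 0.05, 36.5% of the 19407 genes their adjustment ran over, with 19.2% higher and 17.3% lower in KA. Every member was therefore already called, and a gene outside the table was not analysed here. The symbol rule matches 154 annotated genes, of which 59.7% were in the table, beside 29.4% of 21951 annotated protein-coding genes. All values below are the authors' normalised reads (raw counts divided by 1 size factor per library, with factors from 0.888 to 1.25), given in the order control 1 to 3 and KA 1 to 4, and log2 fold changes are KA minus control from an edgeR fit of the raw counts of all 7 libraries. That fit passed 100.0% of the 6761 genes tested at an adjusted p under 0.05, 52.5% higher and 47.5% lower, with a median log2 fold change of 0.36, so a call repeated here adds little to the selection. The median was 0.81 for the genes tested that were higher and -0.89 for those that were lower. A mostly rising group can therefore have a median above 0.36 while its rises stay below 0.81. Listed reads per library ran from 9590718 to 12761458. Those totals cover the listed genes and are not library depths.

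Of the 92 members, all of which were tested, 77 were called higher in KA and 15 lower, which is 83.7% higher beside 52.5% of all genes tested (authors' table: 52.6% of the listed genes higher). Their median log2 fold change was 0.62, beside 0.36 for all genes tested and 0.81 for those of them that were higher. The KA and control libraries did not overlap for 89 members, beside 93.5% of all genes tested, and the exceptions were Dnajc19, Psmb9 and Psmg3. Changes of at least 1 on the log2 scale were less common: 11 of 92 members rose and 6 fell that far, beside 20.3% and 21.0% of all genes tested. The proteasome genes divided into 37 higher and 1 lower, with a median of 0.65. The 37 that were higher also had a median of 0.65, below the 0.81 of all higher genes tested. Among heat shock and chaperonin genes 22 were higher and 12 lower (median 0.50), and among ER genes 18 were higher and 2 lower (median 0.82). Scaling by TMM or RLE factors computed from the listed genes lowered the fold changes of all genes by a median of 0.13 and 0.17, and left member medians of 0.48 and 0.44. No member changed direction under any of 18 alternative scalings, filters, models, adjustments or left-out replicates, a number that does not count the requirement of a log2 fold change of at least 1 given above. All listed genes had been selected on these libraries, so a kept direction adds little.

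**Figure D1:**
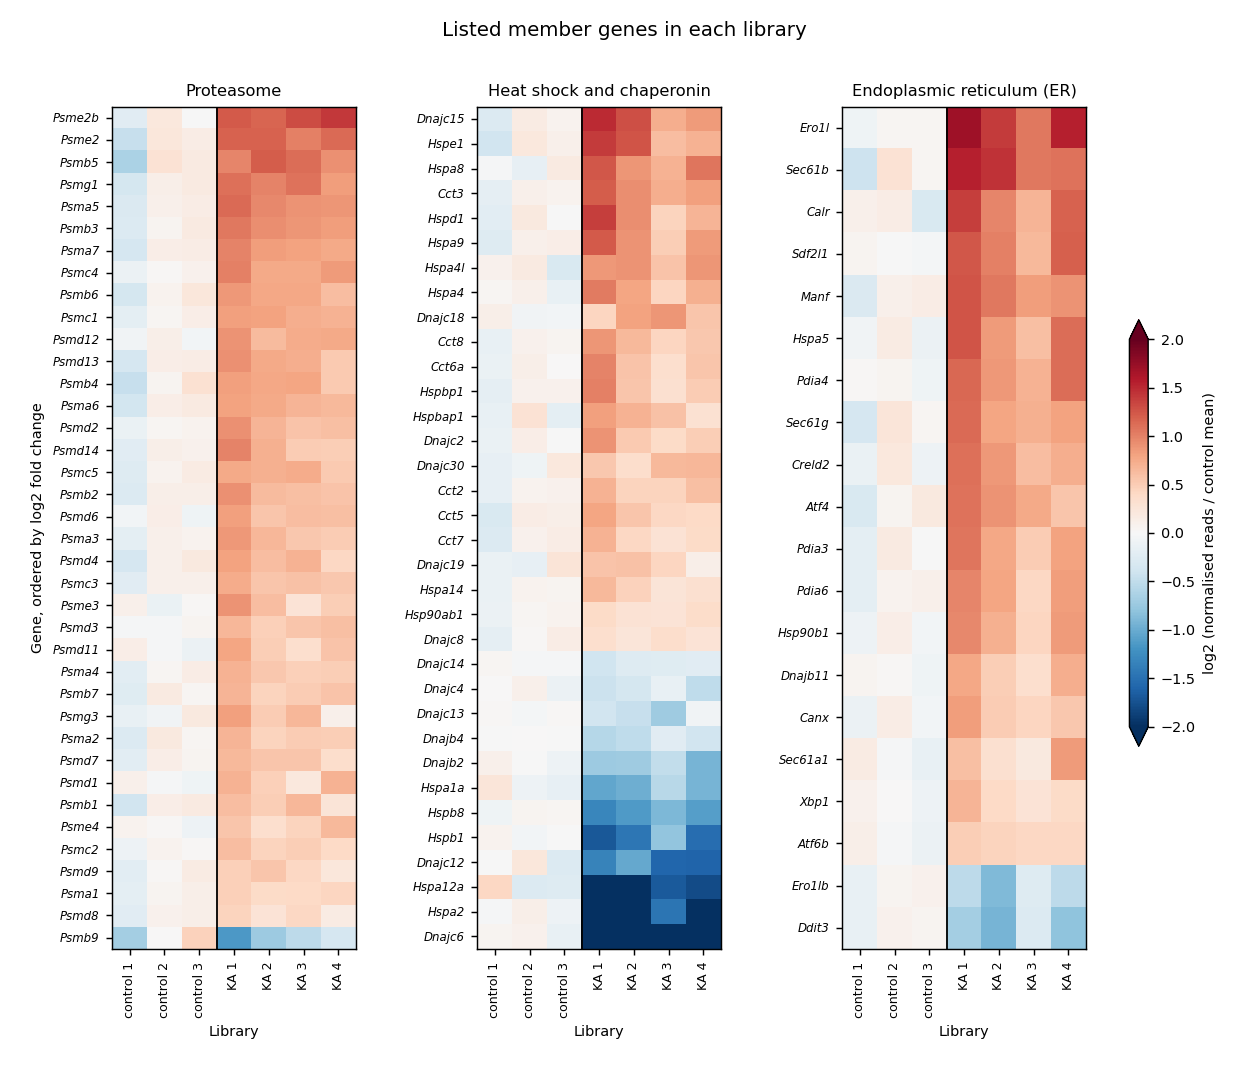
Heat map of the 92 members (rows) in the 3 control and 4 KA libraries (columns), with a panel each for proteasome, heat shock and chaperonin, and ER genes. Within a panel, rows are ordered by log2 fold change. Colour gives the log2 ratio of each library's normalised reads to the control mean, with the scale clipped at -2 and 2. Nearly all proteasome and ER rows are higher in the 4 KA columns, while small heat shock and several J-domain rows are lower.

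Within KA the libraries were not alike. KA 1 was the highest KA library for 64 of the 77 members called higher, beside 61.4% of all 3547 genes called higher, and control 1 was the lowest control for 58 of them, beside 58.5%. KA 3 and KA 4 were the lowest KA libraries for 38 and 27 of the 77 (49.4% and 35.1%), beside 50.0% and 33.0% of all genes called higher. Animal numbers in the titles fall into a lower run (control 1, control 2, KA 1 and KA 2) and a higher run (control 3, KA 3 and KA 4), and within KA the runs coincide with sex, so that these cannot be told apart there. In the lower run both KA libraries lay beyond both controls in the pooled direction for 92 of 92 members, beside 99.3% of all genes tested. In the higher run this held for 90 of 92, with Dnajc19 and Psmg3 as exceptions, beside 97.5%. Within males it held for 92 of 92, beside 99.7%, and within females for 89 of 92, with Dnajc19, Psmb9 and Psmg3 as exceptions, beside 95.7%. These shares lie near those of all genes, which were selected on the same libraries. The labels do not call the runs batches.

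Epidermis holds other cells beside keratinocytes, and in bulk RNA fewer cells of a type and less RNA per cell cannot be told apart. The summed normalised reads of 10 listed keratinocyte markers (of 15) were 688713 to 797308 in controls and 1056250 to 1115746 in KA, with 5 markers higher and 5 lower. Krt1, a keratin of differentiating cells, and the basal keratin Krt14 carried the higher sum, with means of 58067 and 116254 in controls and 304320.0 and 348564 in KA. The basal markers did not move one way: Krt14 and Krt5 were higher by 1.58 and 0.50 on the log2 scale, while Krt15, Col17a1 and Itgb4 had log2 fold changes of -2.13, -1.05 and -0.49. Nor did the markers of differentiation: Krt1, Flg and Ivl were higher by 2.39, 2.99 and 0.71, while Lor had a log2 fold change of -1.85. All 9 listed Langerhans and dendritic cell markers (of 10) rose, and their sum was 18145 to 25569 in controls and 32661 to 47335 in KA. The 7 listed neutrophil, monocyte and macrophage markers (of 13) summed to 872 to 1145 and 1715 to 2108, with 4 higher and 3 lower. T cell markers (7 of 12 listed, 4 higher and 3 lower) summed to 1404 to 1793 and 1251 to 1380. Of fibroblast markers 1 of 9 was listed, of endothelial markers 1 of 7, of melanocyte markers 2 of 7, and of muscle and mast cell markers none. The part of these cell types in the results below was not tested.

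The promoters of the members were searched for the letters of known stress elements, since ER chaperone genes are known to share one. RefSeq promoter windows (GRCm38.p6, 250 bases before each start site, both strands) were found for 77 of the 92 members. Windows are placed by RefSeq start sites, which need not be those of the deposited table. Of the 77, 30 had all their windows outside the table's gene span, 35 had a window partly inside it (Hspa5 among them) and 14 had one wholly inside it (Psmb9 and Hspd1 among them); Dnajb2 and Dnajb4 had both of the latter kinds. The ER stress element was searched as CCAAT and CCACG with 9 bases of any kind between them; its CCAAT part is known to bind NF-Y and its CCACG part is known to bind ATF6 and XBP1. It was present in 0.113% of 32851 windows and in 11 of 5266 listed genes with a window (0.209%). Among the members it was present in 7 of 77, all of them among the 18 ER genes with a window (38.9%). Of these 7, 6 were called higher in KA (Calr, Canx, Creld2, Hsp90b1, Hspa5 and Pdia6) and 1 lower (Ero1lb, Ero1b in RefSeq). The element was thus present in 6 of the 63 members with a window called higher (9.5%) and in 1 of the 14 called lower (7.1%). All ER genes, with or without the element, divided into 18 higher and 2 lower. The matches are shown for all 7 to let the element be compared between them; capitals mark its fixed letters, which read CGTGG and ATTGG where the element lies on the other strand, and Hsp90b1 holds 2 matches.
Hspa5 (chr2:34772000-34772068, + strand): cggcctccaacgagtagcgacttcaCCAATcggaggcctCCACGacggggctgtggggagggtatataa
Calr (chr8:84847050-84847118, - strand): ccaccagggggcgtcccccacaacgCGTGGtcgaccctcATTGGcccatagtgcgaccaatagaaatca
Canx (chr11:50325775-50325843, - strand): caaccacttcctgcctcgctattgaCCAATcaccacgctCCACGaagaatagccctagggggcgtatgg
Creld2 (chr15:88819495-88819563, + strand): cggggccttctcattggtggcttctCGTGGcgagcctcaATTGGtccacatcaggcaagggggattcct
Pdia6 (chr12:17266466-17266534, + strand): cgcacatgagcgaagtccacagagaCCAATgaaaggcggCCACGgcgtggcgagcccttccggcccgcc
Hsp90b1 (chr10:86705508-86705681, - strand): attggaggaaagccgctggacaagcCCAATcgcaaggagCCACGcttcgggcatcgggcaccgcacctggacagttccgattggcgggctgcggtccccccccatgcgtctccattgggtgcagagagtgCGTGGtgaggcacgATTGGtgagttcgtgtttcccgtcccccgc
Ero1lb (chr13:12565657-12565725, + strand): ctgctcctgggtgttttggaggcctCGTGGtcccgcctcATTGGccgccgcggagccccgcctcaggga
The fixed letters and their spacing are shared by these windows because the search required them, while the letters between them differ. A match is a description of letters and not a bound site. The CCAAT box alone was present in 15 of the 18 ER genes (83.3%), beside 39.9% of listed genes with a window.

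A heat shock element was searched as GAA, TTC and GAA with 2 bases of any kind between each, the repeated letters known to bind heat shock factor 1. It was present in 0.466% of all windows, in 0.418% of listed genes with a window and in 2 of 77 members, Hspd1 and Hspe1. Hspa8 and Hsp90ab1 had no window. Each search here took only exact letters within 250 bases, so a gene without a match cannot be said to lack the element. Hspd1 and Hspe1 encode the mitochondrial HSP60 chaperonin and its HSP10 lid. They are transcribed away from each other on chromosome 1, with 215 bases between their start sites (55087932 on the minus strand and 55088148 on the plus strand), so that both windows hold the same element. The stretch is shown in the direction of Hspe1, with the fixed letters of overlapping matches on both strands in capitals.
Hspe1 and Hspd1 (chr1:55088019-55088116, + strand): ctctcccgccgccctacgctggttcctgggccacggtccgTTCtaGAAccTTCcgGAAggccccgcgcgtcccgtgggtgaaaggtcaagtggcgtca
The antioxidant response element TGACNNNGC was present in 4 of the 32 proteasome genes with a window (12.5%), namely Psmb5, Psmb6, Psmd9 and Psmd12. It was present in 13.6% of listed genes with a window and in 11.5% of all genes with a window. The interferon element, searched as GAAA and again GAAA with 2 bases between, was present in 3 of 77 members (3.9%), beside 3.2% of listed genes with a window. The CARE element, searched as TGATGNAA, was present in 2 of 77 members (2.6%), beside 2.75% of listed genes with a window. Among the 18 ER genes with a window it was present in 0.

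All 14 constitutive core subunits in the table rose, beside 52.5% higher among all genes tested. The alpha ring, which gates the barrel, was represented by 7 genes, with rises on the log2 scale of Psma5 by 0.97, Psma7 by 0.85, Psma6 by 0.72, Psma3 by 0.65, Psma4 by 0.55 and Psma2 by 0.53, and Psma1 by 0.42. Psma5 (ENSMUSG00000068749, mm10 chr3:108256926-108279974, + strand) measured 1080.2, 1413 and 1472 in the controls and 2906, 2582, 2468 and 2437 in the KA libraries. Its log2 fold change was 0.97 (SE 0.14; edgeR adjusted p = 0.000173), and each KA library lay above each control. In the beta ring, Psmb5, Psmb6 and Psmb7 carry the chymotrypsin-like, caspase-like and trypsin-like cutting sites. Psmb5 (ENSMUSG00000022193, mm10 chr14:54614119-54618022, - strand) measured 1109, 2102 and 1938 in the controls and 3384, 3955, 3719 and 3225 in the KA libraries, with log2 fold change 1.06 (SE 0.20; edgeR adjusted p = 0.000866). Control 1 was the low control and the groups did not overlap. Psmb6 measured 1818, 2416 and 2703 in the controls and 4209.9, 3967, 3960.5 and 3558 in the KA libraries, again without overlap, and its log2 fold change was 0.76 (SE 0.15; edgeR adjusted p = 0.000944). The other beta subunits rose by similar amounts: Psmb3 by 0.93, Psmb4 by 0.73, Psmb2 by 0.69, Psmb7 by 0.55 and Psmb1 by 0.52 on the log2 scale. The 14 core genes spanned 0.42 to 1.06 with a median of 0.70. The Psmb1 call was lost under RLE factors.

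The 19S cap rose with the core, in 16 of 16 listed genes with a median log2 fold change of 0.65, beside 52.5% higher among all genes tested. Its ATPase ring, which threads proteins into the core, was represented by 5 of 6 genes, and Psmc4 rose most, from 1396, 1553 and 1617 in controls to 3068, 2576, 2568 and 2741 in KA. The log2 fold change of Psmc4 was 0.85 (SE 0.12; edgeR adjusted p = 0.000162), beside 0.76 for Psmc1, 0.69 for Psmc5, 0.60 for Psmc3 and 0.49 for Psmc2. Among the 11 non-ATPase subunits, the largest rises were Psmd12 by 0.76, Psmd13 by 0.74, Psmd2 by 0.70 and Psmd14 by 0.69, where Psmd2 is a scaffold of the base and Psmd14 removes ubiquitin from substrates. The smallest were Psmd11 by 0.56, Psmd7 by 0.53, Psmd1 by 0.53 and Psmd8 by 0.33. Psmd6, Psmd4 and Psmd3 lay between these, at 0.65, 0.64 and 0.58. Psmd8 measured 2892, 3589 and 3645 in the controls and 4594, 4062, 4497 and 3769.7 in the KA libraries, a narrow separation, and its log2 fold change was 0.33 (SE 0.13; edgeR adjusted p = 0.03). Its call was lost under 8 of 18 alternatives, among them TMM and RLE factors and leaving out control 1, KA 1, KA 2 or KA 3.

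All 4 listed activators (of 6 annotated activators and inhibitors) and all 3 listed assembly factors (of 7) also rose, beside 52.5% higher among all genes tested. Psme2, a subunit of the PA28 activator that opens the core and is known as interferon inducible, measured 2186, 3501 and 3305 in the controls and 6757, 6819, 6041 and 6595 in the KA libraries. Its log2 fold change was 1.13 (SE 0.16; edgeR adjusted p = 0.000201) and the groups lay apart. Psme2b, a copy of Psme2, had a log2 fold change of 1.28 (SE 0.18; edgeR adjusted p = 0.000189), but reads of these near-identical genes may be split between them. Psme3, the nuclear PA28 subunit, rose by 0.59 and Psme4, the PA200 activator, by 0.50. Psmg1, a chaperone of alpha ring assembly, measured 254, 354 and 367 in the controls and 695, 643, 686 and 582 in the KA libraries, with log2 fold change 1.00 (SE 0.16; edgeR adjusted p = 0.000321). Psmg3, of the same pathway, had a log2 fold change of 0.55 with overlapping groups, and its call was lost under 6 of 18 alternatives. Psmd9, an assembly chaperone of the 19S base, rose by 0.42, a call lost with TMM factors, with RLE factors and without control 1. Psmd9 also shares 25.5% of its exonic length with Gm26745. Outside the symbol rule, 6 of 7 listed proteasome genes (of 12) rose and 1 fell, beside 52.5% higher among all genes tested. Their median was 0.51, beside 0.36 for all genes tested. Pomp, the maturation factor of the core, rose by 0.87, the cap subunit Sem1 by 0.86 and the ubiquitin receptor Adrm1 by 0.51.

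Psmb9, the immunoproteasome subunit that takes the place of Psmb6, was the one proteasome member called lower. Psmb9 (ENSMUSG00000096727, mm10 chr17:34181988-34187764, - strand) measured 1202, 1926 and 2632 in the controls and 869.5, 1155, 1337 and 1517 in the KA libraries. Control 2 and control 3 were above all KA libraries, but control 1 fell within the KA range. The log2 fold change was -0.66 (SE 0.25; edgeR adjusted p = 0.0282). This call was lost when adjusted over the authors' 19407 genes (edgeR adjusted p = 0.081), and without control 2 (0.062), control 3 (0.169, log2 fold change -0.36), KA 1 (0.0583) or KA 2 (0.0606). It was kept in the other alternatives. With the title letter as a term the edgeR adjusted p was 0.00148 (log2 fold change -0.72). With the run of animal numbers or the replicate number as a term it was 0.00371 and 0.00431 (both -0.73). Psmb9 shares 5.79% of its exonic length with Tap1 on the opposite strand, and Tap1 had a log2 fold change of -0.66 in the same fit (Tap1 was named here for its position, after its values were seen). The other immunoproteasome subunits, Psmb8 and Psmb10, were not analysed here.

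The ratio of Psmb9 to Psmb6 needs no scaling between libraries. On the log2 scale it was -0.596, -0.327 and -0.039 in the controls and -2.276, -1.78, -1.567 and -1.23 in KA. Every KA library lay below every control, with means of -0.321 ± 0.279 (SD, n = 3) and -1.71 ± 0.438 (SD, n = 4). The difference was -1.39 (exact permutation test over 35 regroupings, two-sided, p = 0.0571, the smallest this design allows, so 0.05 could not be reached). The ratio compares 2 genes whose own changes are given above and is no separate measurement of either.

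Genes of interferon response and antigen processing were read beside Psmb9. Of 12 tested in that list of 30, 9 fell and 3 rose, beside 47.5% lower and 52.5% higher among all genes tested. The median log2 fold change of the list was -1.09, beside 0.36. The transcription factor Stat2 fell by 1.27 and the interferon-induced protease Usp18 fell by 2.74, while Irf8, a factor of myeloid and dendritic cells, rose by 1.88. Langerhans and dendritic cell markers were higher in KA, as given above, and their part in this list was not tested.

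**Figure D2:**
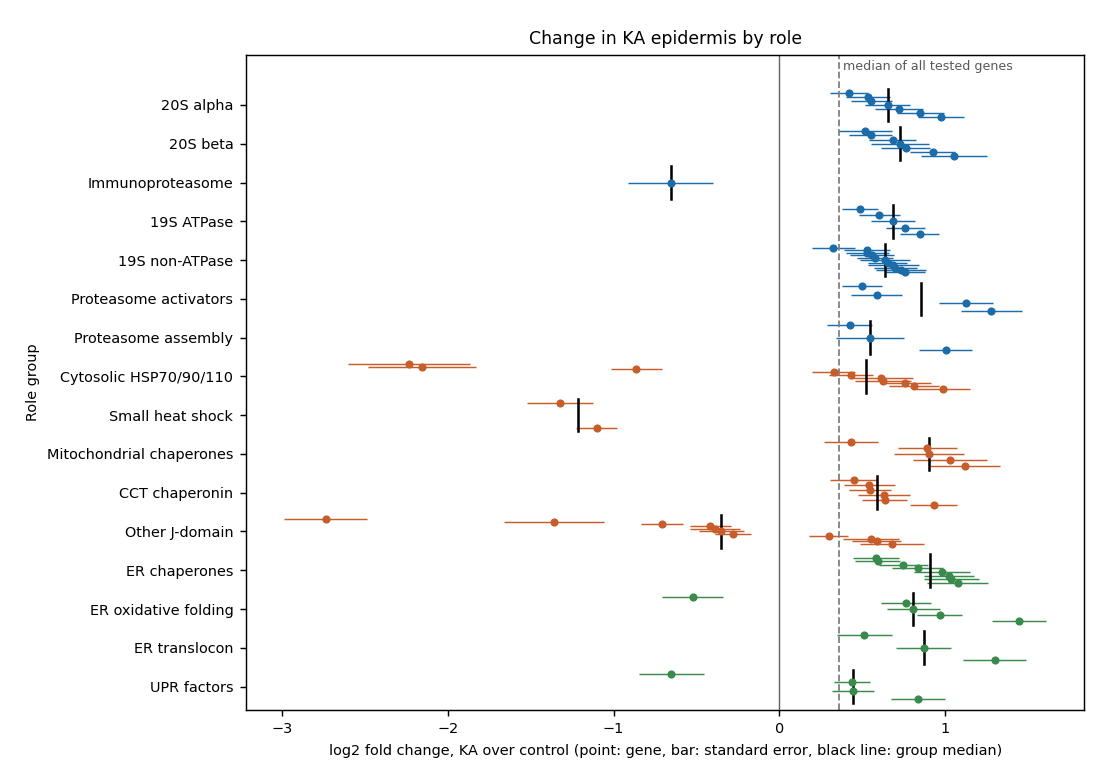
Log2 fold change (KA minus control, x axis) of each member, grouped by role (y axis), with each point 1 gene, the bars its standard error, the short black lines the medians of the roles and the dashed line the median of all tested genes at 0.36. The 14 core and 16 cap genes sit between 0.33 and 1.06, Psmb9 at -0.66 apart from them, and J-domain proteins spread down to -2.74.

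In the cytosol, the chaperonin subunits and Hspa8 rose, while the small heat shock proteins and Hspa1a fell. Of the 10 listed genes grouped here with HSP70, HSP90 and HSP110, 7 rose and 3 fell, which is 70.0% higher beside 52.5% of all genes tested. All 6 listed subunits (of 8 annotated) of the CCT ring, which folds actin and tubulin, rose, beside 52.5% higher among all genes tested. Their median log2 fold change was 0.59: Cct3 by 0.93, Cct8 by 0.64, Cct6a by 0.63, Cct2 by 0.55, Cct5 by 0.54 and Cct7 by 0.45. Cct3 measured 2557, 3078 and 3013 in the controls and 6644, 5479, 4780.4 and 5091 in the KA libraries, without overlap. The Cct7 call was lost under RLE factors. Hspa8, the constitutive HSP70 of the cytosol (ENSMUSG00000015656, mm10 chr9:40800984-40810087, + strand), measured 11260.5, 10286 and 12961 in the controls and 27185, 21289.6, 18607 and 24239 in the KA libraries. Its log2 fold change was 0.99 (SE 0.16; edgeR adjusted p = 0.0004), with all KA libraries above all controls. Its nucleotide exchange partners of the HSP110 family rose as well, Hspa4l by 0.81 and Hspa4 by 0.76, and so did the exchange factor Hspbp1 by 0.63. Hspbap1, placed in the same group by its symbol and not as a partner of Hspa8, rose by 0.62. Hspa14, which works at the ribosome, rose by 0.43 (lost under RLE factors), and its J-domain partner Dnajc2 by 0.59. The constitutive HSP90, Hsp90ab1, measured 36203, 40002 and 41013 in the controls and 50970.3, 47976, 47043 and 50325 in the KA libraries. Its groups did not overlap, but the log2 fold change of 0.33 (SE 0.13; edgeR adjusted p = 0.0298) kept its direction and lost its call under 11 of 18 alternatives, with adjusted p values from edgeR of up to 0.212.

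Against these, Hspa1a, a stress-inducible HSP70 (ENSMUSG00000091971, mm10 chr17:34969190-34972156, - strand), measured 1928, 1518 and 1456 in the controls and 794, 828, 1109 and 863 in the KA libraries, with log2 fold change -0.86 (SE 0.15; edgeR adjusted p = 0.000618). All KA libraries lay below all controls. Hspa1a has a near-identical neighbour, Hspa1b, and overlaps exons of Gm20481 on the opposite strand, so its reads are uncertain. Hspa2, an HSP70 best known from spermatogenesis, measured 751, 827 and 715 in the controls and 62.3, 160.0, 278 and 149.5 in the KA libraries. Hspa12a, a distant HSP70 relative, measured 845, 527 and 532 in the controls and 68.3, 119, 198 and 184 in the KA libraries. Their log2 fold changes were -2.23 (SE 0.37) and -2.15 (SE 0.33), with edgeR adjusted p = 0.000615 and 0.000311. These were the deepest falls among the HSP70 members.

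Both small heat shock proteins in the table (of 8 annotated) fell, beside 47.5% lower among all genes tested. Hspb1, the holdase of keratinocytes that also binds actin (ENSMUSG00000004951, mm10 chr5:135887919-135889563, + strand), measured 23131, 21231 and 21930.5 in the controls and 6830.3, 8072, 12726 and 7714 in the KA libraries. Its log2 fold change was -1.32 (SE 0.20; edgeR adjusted p = 0.000234), a KA level 0.400 times that of controls. Hspb8, which acts with Bag3 in clearing misfolded protein by autophagy, measured 4375, 4824 and 4789 in the controls and 1881, 2118, 2502 and 2180.2 in the KA libraries, with log2 fold change -1.10 (SE 0.12; edgeR adjusted p = 4.78e-05). Neither gene's groups overlapped, and both calls held under all 18 alternatives. Per kilobase of annotated gene length, Hspb1 was the highest member in controls at 21433 normalised reads per kb, ahead of Hsp90ab1 at 13029. In KA the order of these levels turned, with 8569.6 for Hspb1 and 16365 for Hsp90ab1. Hspa8 had 2674 normalised reads per kb in controls and 5308 in KA.

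**Figure D3:**
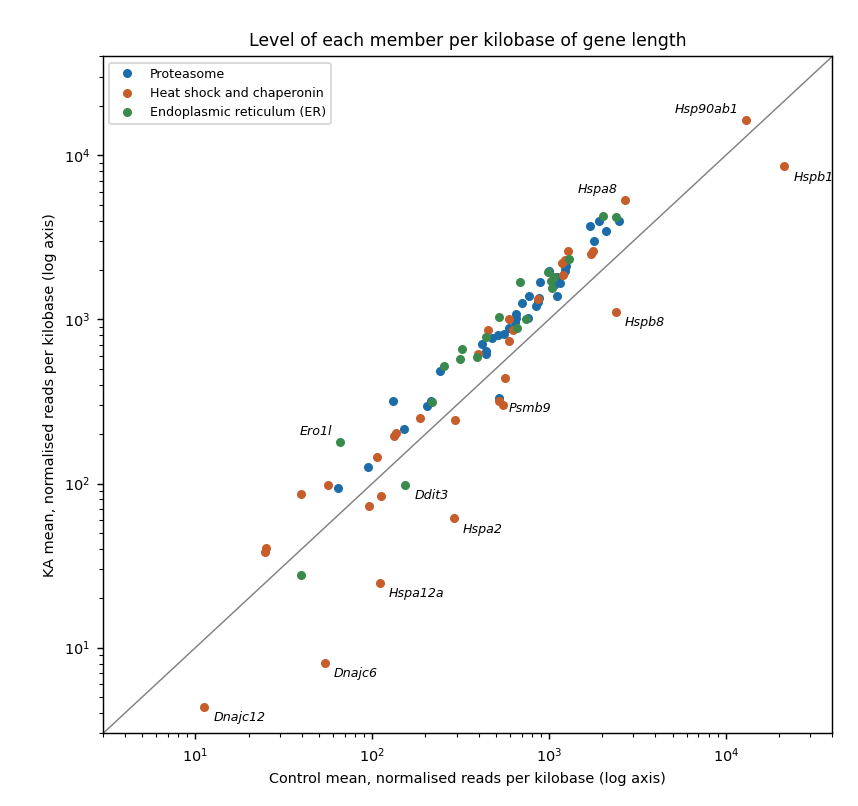
Mean normalised reads per kb of gene length in controls (x axis) and KA (y axis), both on log scales, for the 92 members, with the diagonal marking equal levels. Hspb1 and Hspb8 lie below the diagonal at high levels, and Dnajc12, at 11.2 in controls, is the lowest member.

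All 5 listed mitochondrial chaperones (of 7 annotated) rose, beside 52.5% higher among all genes tested. Hspd1 measured 2815, 3710.3 and 3212 in the controls and 8482, 6206, 4398 and 5225 in the KA libraries. Hspe1, on the other side of the shared promoter printed above, measured 1447, 2187 and 2035 in the controls and 4974, 4510.1, 2885 and 3058 in the KA libraries. Their log2 fold changes were 0.91 (SE 0.21; edgeR adjusted p = 0.00273) and 1.03 (SE 0.22; edgeR adjusted p = 0.00193). KA lay above control throughout for both genes, although they share 4.24% of the exonic length of Hspd1 on opposite strands. Hspa9, the mitochondrial HSP70 that pulls proteins in, rose by 0.89. The import motor's J-domain proteins Dnajc15 and Dnajc19 had log2 fold changes of 1.12 and 0.43, but the Dnajc19 groups overlapped and its call was lost under 7 of 18 alternatives.

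Of the other J-domain proteins, which hand clients to HSP70, 11 of 32 annotated were listed, and 4 rose and 7 fell, with a median log2 fold change of -0.35. That is 63.6% lower, beside 47.5% of all genes tested, a difference that rests on 11 genes. Dnajc6, the auxilin that uncoats clathrin vesicles, fell furthest of all 92 members, from 330.4, 338 and 286 in controls to 27.7, 49.6, 51.2 and 62.3 in KA, with log2 fold change -2.74 (SE 0.25; edgeR adjusted p = 1.67e-05). Dnajc12, a partner of aromatic amino acid hydroxylases, measured 50.2, 58.8 and 41.7 in the controls and 19.8, 24.8, 16.7 and 16.6 in the KA libraries and fell by 1.36. Dnajb2 fell by 0.71 and Dnajb4 fell by 0.42. Both Dnajc6 and Dnajc12 separated the groups. The rises were Dnajc18 by 0.68, Dnajc2 by 0.59, Dnajc30 by 0.55 and Dnajc8 by 0.30, where Dnajc30 shares 26.2% of its exonic length with Bud23. Dnajc13, Dnajc4 and Dnajc14 had log2 fold changes of -0.39, -0.35 and -0.28. The calls of Dnajc4, Dnajc8 and Dnajc14 were each lost under 7 of 18 alternatives, and that of Dnajc13 under 6. Regulators and cochaperones outside the rule (14 of 24 listed) divided into 11 higher and 3 lower, beside 52.5% higher among all genes tested, with a median of 0.48 beside 0.36. The mitochondrial exchange factor Grpel1 rose by 0.75 and the mitochondrial HSP90 Trap1 by 0.72, while heat shock factor 2, Hsf2, fell by 1.84.

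In the ER, all 8 listed chaperones (of 17 annotated) rose, with a median log2 fold change of 0.91, beside 52.5% higher among all genes tested. Hspa5, the ER HSP70 also called BiP and a standard readout of the unfolded protein response (ENSMUSG00000026864, mm10 chr2:34771970-34777547, + strand), measured 3981, 4714 and 3875 in the controls and 10059, 7579, 6385 and 9059 in the KA libraries. Its log2 fold change was 0.98 (SE 0.17; edgeR adjusted p = 0.000493), 1.97 times the control level. Calr, the calcium-binding lectin chaperone of glycoproteins, measured 6247, 6454 and 4716 in the controls and 15096, 11415, 9296 and 13184 in the KA libraries, with log2 fold change 1.08 (SE 0.19; edgeR adjusted p = 0.000503). In both genes KA 1 was the highest and KA 3 the lowest KA library, and the groups lay apart. The other rises were Sdf2l1 by 1.04, Manf by 1.02, Creld2 by 0.84, Hsp90b1 by 0.75, Dnajb11 by 0.59 and Canx by 0.58, of which Manf, Creld2 and Sdf2l1 are known as ER stress-inducible, Hsp90b1 is the ER HSP90, Dnajb11 a J-domain partner of Hspa5 and Canx the membrane-bound lectin chaperone. Of the 5 chaperones with the ER stress element printed above, Calr rose most and Canx least. Elsewhere in the table the element was present in Hnrnpa3, Syvn1, Zfp57 and Tdrd9, of which Hnrnpa3 (0.73) and the ubiquitin ligase Syvn1 (0.43) were higher and Zfp57 (-2.33) lower on the log2 scale, while Tdrd9 was too low to be tested. Those non-members were named for the element and not for their change. KA 1 was the highest KA library for 17 of the 18 ER genes called higher, and KA 3 the lowest for 16, beside 61.4% and 50.0% of all genes called higher.

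Disulphide formation in the ER runs from the Ero1 oxidases to the protein disulphide isomerases. Ero1l, the widely expressed oxidase that also responds to hypoxia (ENSMUSG00000021831, mm10 chr14:45283087-45318771, - strand), measured 327, 355 and 357 in the controls and 1123, 915, 722 and 1021 in the KA libraries. Its log2 fold change of 1.45 (SE 0.16; edgeR adjusted p = 4.97e-05) was the largest rise among the 92 members. Its relative Ero1lb measured 238, 274 and 282 in the controls and 185, 144, 222 and 185 in the KA libraries, with log2 fold change -0.52 (SE 0.19; edgeR adjusted p = 0.0192). The 2 oxidases thus moved in opposite directions, without overlap in either, although the Ero1lb call was lost when adjusted over 19407 genes and without control 2, control 3 or KA 2. The isomerases Pdia4, Pdia3 and Pdia6 rose by 0.97, 0.81 and 0.76. Pdia4 measured 1277, 1312 and 1186 in the controls and 2786, 2305, 2045 and 2720.1 in the KA libraries. At the Sec61 channel, through which new chains enter the ER, the small subunit Sec61b measured 650.4, 1059 and 897 in the controls and 2549, 2366, 1811 and 1839 in the KA libraries, with log2 fold change 1.30 (SE 0.19; edgeR adjusted p = 0.000202). Sec61g rose by 0.87 and the pore subunit Sec61a1 by 0.51, the latter not called under RLE factors. Outside the rule, 19 of 21 listed ER folding and translocation genes (of 35) rose and 2 fell, beside 52.5% higher among all genes tested, with a median of 0.62 beside 0.36. Among those that rose were the oxidase Qsox1 by 1.24, the isomerase P4hb by 1.00 and the translocon-associated Ssr4 by 0.79.

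The transcription factors of the unfolded protein and integrated stress responses did not all move one way. Atf4, whose translation rises when initiation is inhibited, measured 2491, 3198 and 3509 in the controls and 6525, 5709, 5182 and 4479.8 in the KA libraries, with log2 fold change 0.84 (SE 0.16; edgeR adjusted p = 0.00103). Xbp1, activated by splicing that gene counts do not show, measured 2542, 2412 and 2238 in the controls and 3843, 3176, 2884 and 3142 in the KA libraries and rose by 0.44 (edgeR adjusted p = 0.00744; not called under RLE factors). Atf6b rose by 0.44. Ddit3, which encodes the pro-apoptotic factor CHOP and is a textbook target of Atf4, measured 238, 281 and 274 in the controls and 165, 139, 218 and 150.5 in the KA libraries. All 4 KA libraries were below the 3 controls, and the log2 fold change was -0.65 (SE 0.20; edgeR adjusted p = 0.00931). Ddit3 thus fell in the same libraries in which Atf4 and Hspa5 rose.

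Other listed genes of these responses were read beside them. Of 25 integrated stress response genes, targets together with the eIF2 kinases Eif2ak1, Eif2ak2 and Eif2ak4, 14 were listed. Of these 10 rose and 4 fell, beside 52.5% higher among all genes tested, with a median log2 fold change of 1.31 beside 0.36. Those that fell were the stress factor Atf3 (-1.41), Ddit4 (-1.36), the phosphatase subunit Ppp1r15a (-0.61) and the kinase Eif2ak2 (-0.46), named after their values were seen. The amino acid response factor Atf5 rose by 1.90 and the serine synthesis enzyme Psat1 by 1.09. Slc7a11, the cystine transporter, had 2.41 ± 1.38 (SD, n = 3) normalised reads in controls and 496 ± 286 (SD, n = 4) in KA, so its fold rests on few control reads. Among unfolded protein response sensors and ER-associated degradation genes, 9 of 24 were listed, 7 higher and 2 lower, beside 52.5% higher among all genes tested, with a median of 0.53 beside 0.36. Vcp, the ATPase that extracts proteins from the ER, rose by 0.63, Edem1 by 0.61 and Derl1 by 0.58. The sensors Ern1 and Eif2ak3 were not analysed here.

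**Figure D4:**
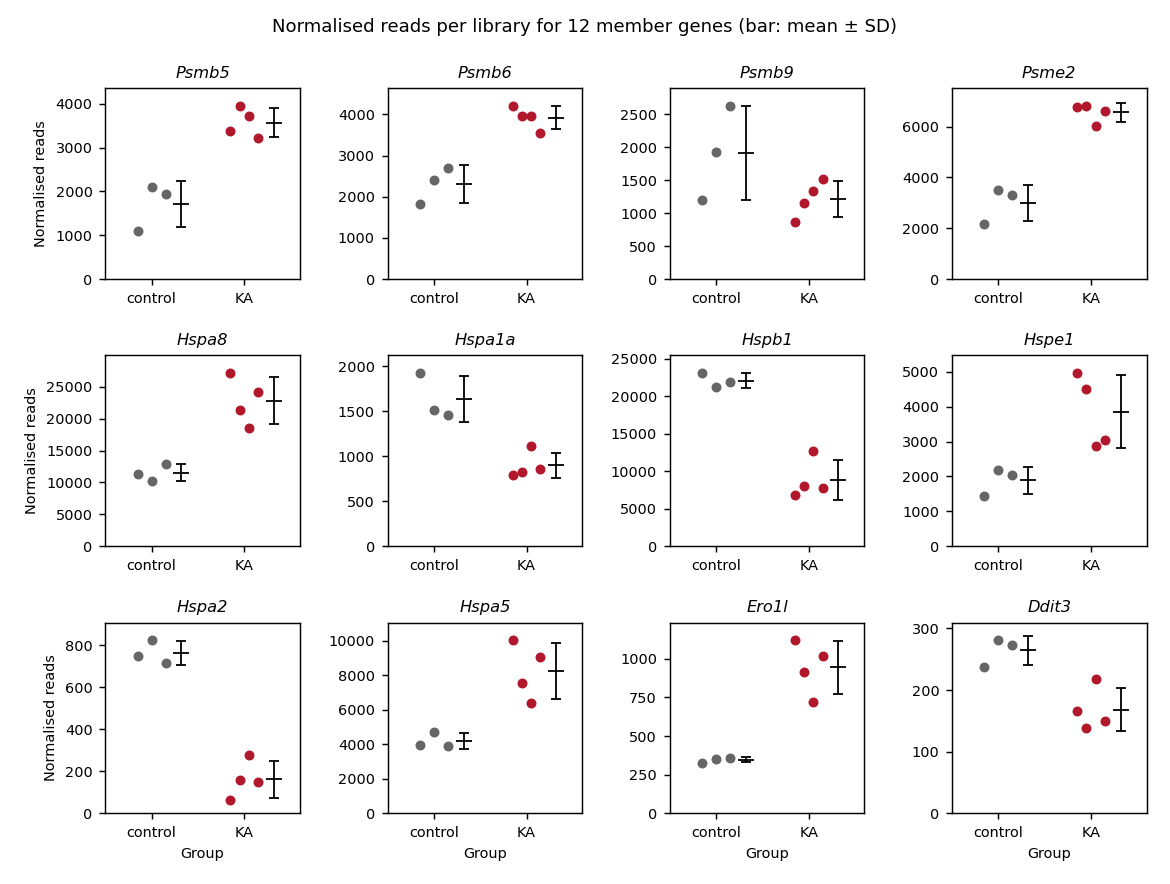
Normalised reads (y axis, linear from 0, 1 panel per gene) of 12 selected members in each control and KA library, with each point 1 mouse and the black bars the mean ± SD of the group. Points of the groups are apart in every panel except Psmb9, where control 1 lies within the KA range.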

How the data were processed

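RNA of separated epidermis was sequenced from 4 KA and 3 control mice. The library kit was NEBNext Ultra RNA, per the labels' protocols. The submitters' processing notes name fastp, STAR 2.6.1d, featureCounts 1.5.0-p3, DESeq2 1.40.2 and the build mm10; the strand setting is not given in the sources used here. Per the file headers, the single table holds raw counts per gene, and normalised reads, a signal in which the authors scaled each library's counts by 1 size factor. The authors' log2 fold change, their test score and the authors' p-values, raw and adjusted, stand beside them. It lists only genes with an authors' adjusted p under 0.05.

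Raw counts were refitted with edgeR 4.0.16 in R 4.3.3: filterByExpr by group (330 genes left out, 6761 kept), effective library sizes from the authors' size factors, a robust quasi-likelihood test, and Benjamini-Hochberg adjustment over all genes tested called at under 0.05. Each standard error was taken as the size of the log2 fold change divided by the root of its F statistic. Means and SDs are of normalised reads. The code was tested on simulated data. Because the genes had been selected on these libraries, p-values are conditional on that selection. An outside list other than the cell type markers was described by its counts and median beside those of all genes tested. Every member of a small role group, or the 4 highest and 4 lowest of a large one, was named with values. So were up to 3 genes per outside list by smallest adjusted p. Members and lists were chosen with earlier results of these data known. Alternatives were TMM and RLE factors, DESeq2 1.42.0, voom in limma 3.58.1, no filter, a filter on 10 counts on average, sex, replicate number, title letter or run of animal numbers as a term, adjustment over 19407 genes, a log2 fold change of at least 1, and each replicate left out. Positions are those of the deposited table, 1-based on mm10. Promoter sequences are from RefSeq on GRCm38.p6. Protein sequences were not used here.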

Additional observations from a re-analysis of the deposited data

Results flagged for a closer look

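In 2 of the 92 members, 1 KA library stood apart from the other 3 by a range test for small groups; chance alone gives about 5% of members, or 4.6. For Hspa4l, KA 3 was the lowest KA library, with a gap to its nearest neighbour of 0.856 of the range of the KA libraries. For Dnajc14, KA 1 was the lowest, with a gap of 0.887 of that range.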

How the results depend on the processing

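No member changed direction under any of 18 alternatives that keep the call rule (a log2 fold change of at least 1 is given apart), and 76 of 92 kept their call in all 18. The members had been selected on these libraries, and the same share was not counted over all genes, so neither count sets the members apart. Most calls were lost by Hsp90ab1 (11), Psmd8 (8), Dnajc4, Dnajc8, Dnajc14 and Dnajc19 (7 each). RLE factors ended 11 member calls, adjustment over 19407 genes 10 and TMM factors 6. Over all genes, those called higher went from 3547 to 2763, 3103 and 2977 under these settings. Those called lower went from 3211 to 3212, 2831 and 3212. A log2 fold change of at least 1 left 1375 higher and 1420 lower genes, with 11 and 6 members, of which 4 and 0 were proteasome genes, 2 and 6 heat shock and chaperonin genes, and 5 and 0 ER genes. Adjustment over 19407 genes left 0 proteasome genes (Psmb9 lost) and 1 ER gene called lower. With each replicate left out in turn, proteasome genes called lower ranged from 0 (without control 2, control 3, KA 1 or KA 2) to 1, and ER genes called lower from 1 (without control 2, control 3 or KA 2) to 2. Over the same fits, ER genes called higher stayed at 18 and proteasome genes called higher ranged from 34 to 37. The Psmb9 to Psmb6 difference ranged from -1.20 to -1.55.

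Whether replicate numbers mark pairs of mice is not stated by the labels, although same-numbered libraries also share a title letter. Deviations of same-numbered libraries from their group means correlated at -0.192, 0.129 and -0.0969. In groups this small the deviations depend on each other, so these correlations cannot decide whether the samples were paired. With the number as a replicate block, 3207 genes were called higher and 2913 lower, with 75 and 13 members (Dnajc4, Dnajc8, Dnajc14 and Hsp90ab1 lost), and the ratio difference was -1.55 (exact sign-flip permutation over 8 arrangements, two-sided p = 0.25). KA 4 has no control of its number, so it adds nothing to these comparisons. For the ratio, the difference is therefore the same as without KA 4.

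Listed genes alone give no library depth, so no detection limit is stated, and genes outside the table cannot be read as unchanged. With 3 and 4 libraries, the spread of each group rests on few mice.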
